A study of Mus musculus with 24 samples.

Results

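Cytosolic ribosomal proteins are the protein components of the ribosomes that translate nuclear-encoded mRNAs. Their genes were taken by symbol, as protein-coding mouse genes named Rpl or Rps with a number, together with Rplp0, Rplp1, Rplp2 and Rpsa, leaving out the Rps6k kinases, Rps19bp1 and symbols with -ps, which mark pseudogenes. Of 85 such genes, 83 reached 10 normalized counts in 6 or more of the 24 libraries. By symbol alone, 50 of these were counted to the large subunit (Rpl or Rplp) and 33 to the small subunit (Rps or Rpsa). A symbol does not show that the protein, for example that of the paralog Rpl7l1, is part of the finished ribosome. The 83 genes stood among 14541 genes that passed the same filter, out of 55487 listed. Rpl10l and Rpl39l, paralogs of Rpl10 and Rpl39, were listed at 0 in every library, and the lowest gene that passed was Rpl3l, with a mean of 17.3 over the libraries and 10 counts or more in 22 of them.

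The RNA came from wild-type C2C12 cells, a mouse skeletal muscle line whose myoblasts fuse into contractile myotubes. All myotubes had formed in 5 % O2 and were at day 5 of differentiation. They spent 2 h in 5 % or 1 % O2 and were taken either without stimulation (5 % CTRL, 1 % CTRL) or after electrical stimulation that makes them contract (5 % STIM, 1 % STIM), with 6 libraries in each of 4 groups. C2C12 is a single clonal line. The study's methods call the libraries of a group biological replicates, and neither they nor the labels say how the cultures were separated, so p-values measure the spread between these libraries. The comparisons asked how mRNA levels of the translation machinery differed after acute hypoxia, after contraction, and after contraction in hypoxia.

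A ribosome is built from a large and a small subunit, each an assembly of ribosomal RNA and many different proteins, most of them present as a single copy per particle. The stalk proteins Rplp0, Rplp1 and Rplp2 recruit translation factors, and Rpl5 and Rpl11 bind the 5S RNA. Ribosomal protein mRNAs are short, abundant and stable, and many begin with a 5′ terminal oligopyrimidine (TOP) motif through which mTORC1 signalling sets how well they are translated. Low O2 and muscle contraction are both known to alter mTORC1 signalling. Such regulation of translation need not alter the mRNA level, and the libraries measure mRNA level only.

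Libraries held 26541858 to 28173745 reads. Myotube markers (10 genes, among them Myog, Myh3 and Acta1) summed to 537535 to 654461 normalized counts per library. Markers of proliferating myoblasts (7 genes, among them Mki67 and Pax7) summed to 5353 to 8929. The myoblast sum was 5353 to 5868 in 5 % CTRL, 6615 to 8929 in 1 % CTRL, 5779 to 6481 in 5 % STIM and 6445 to 7715 in 1 % STIM, so that it moved with O2, and its part in the results below was not tested. No marker of either list was at 0 in any library. In 1 % CTRL against 5 % CTRL, 5 of the 7 myoblast markers rose and 1 fell, and 1 of the 10 myotube markers rose and 5 fell. The counts were 4 and 1, and 1 and 5, between 1 % STIM and 5 % STIM. Stimulation in 5 % O2 gave 3 and 1 for the myoblast list and 4 lower for the myotube list, stimulation in 1 % O2 gave 1 and 2, and 2 lower, and the difference of these responses was negative for 2 myoblast markers and positive for 1 myotube marker. These counts are at a limma adjusted p under 0.05. In the same order, 59.9 %, 57.4 %, 21.4 %, 22.3 % and 11.3 % of all tested genes were called. In RNA from whole cultures, fewer cells of a type and less RNA per cell cannot be told apart.

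Ribosomal protein genes took 1.51 %, 1.66 % and 1.80 % of all counts in 5 % CTRL, as the lowest, median and highest library. The share was 1.52 %, 1.90 % and 2.04 % in 1 % CTRL, 1.63 %, 1.73 % and 1.75 % in 5 % STIM, and 1.62 %, 1.83 % and 1.97 % in 1 % STIM. The 4 groups overlapped. The lowest value of 1 % CTRL belonged to replicate 1, and the other 5 libraries of that group started at 1.87 %, above every library of 5 % CTRL.

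Replicate 1 of 1 % CTRL also stood apart in a trend over gene length. In each library, the log2 deviation of the other tested genes from their mean was regressed on their log2 exon length. The slope was 0.099 in this library and -0.044 to -0.016 in the other 5 of its group, and the next steepest was 0.060, in replicate 3 of 1 % STIM. Replicates 5 and 1 of 5 % CTRL followed, with slopes of 0.045 and 0.037 and shares of 1.55 % and 1.51 %. Ribosomal protein genes have a median exon length of 977 bases (range 374 to 5395), against 3154 for all tested genes, so they lie at the end of the scale where such a trend weighs most. The origin of the trend was not tested. The counts of calls it moves most are given with and without replicate 1 of 1 % CTRL.

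**Figure D1:**
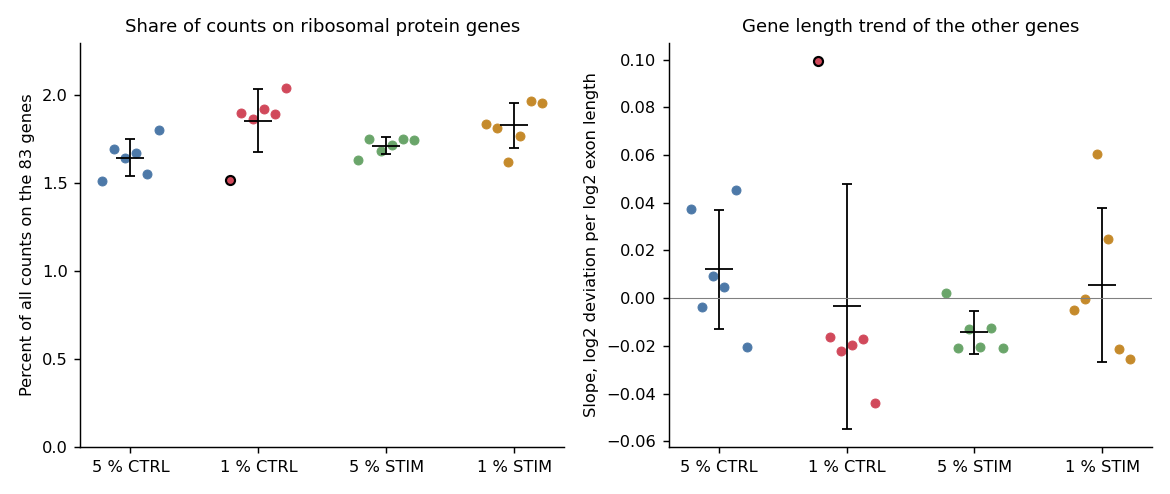
Percent of all counts on the 83 ribosomal protein genes (left) and slope of log2 deviation on log2 exon length over the other tested genes (right), for each of 6 libraries in 4 groups. Points are libraries in replicate order, lines are mean and SD, and the ringed point is replicate 1 of 1 % CTRL, with a share of 1.52 % and a slope of 0.099, apart from the other 5 libraries of its group.

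Reads of ribosomal protein genes are hard to assign, because retrotransposed copies of these genes are scattered over the genome. Over the 83 genes, 70 shared at least 10 % of their 75-base words with transcripts of other genes, and 13 shared less. These counts include words shared with genes that overlap at the same locus. Rpl13a, for example, shared 48.5 % of its words in all and 6.02 % with copies elsewhere. Together, 699 copies elsewhere in the genome could be assigned to 78 of the genes, and the copies held 25.1 % of the counts of gene and copies. For 18 genes the copies had more counts than the gene itself. The most extreme cases were Rps2 (chr17:24718116-24721929, GRCm38), with a mean of 46.5 counts on the gene and 13243 on its copies, and Rps18, with 188 and 11007. Rps3a1 and Rps7 had 802 and 456 counts beside 19822 and 8644 on copies. The authors' counting tool, RSEM, estimates how shared reads divide between loci, so counts on a gene alone rest on that estimate. Values with the copies added, an alternative chosen after the data had been seen, are given beside the calls of such genes. Of the 18 genes, 4 were called at rest in 1 % against 5 % O2 on their own counts (2 higher, 2 lower) and 2 with copies (both higher). With stimulation in 5 % O2 the calls went from 5 (3 higher, 2 lower) to 0 by limma. Without copies added, the shares called over all tested genes were 59.9 % at rest and 21.4 % with stimulation in 5 % O2.

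The words shared were highest in Rpl5 (92.5 %), Rps27rt (90.3 %), Rpl35 (89.2 %) and Rpl36a (84.6 %). Rpl5 shares most of them with the transcribed pseudogene Gm15500 (47.9 % of its words) and with Fam69a, which overlaps it (44.6 %). Rps27rt, a gene of 374 bases, shares nearly all of its sequence with Rps27. At the other end, Rpl3l shared none and Rpl22 shared 1.41 %.

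Per kilobase of exon, the level ran over more than 3 orders of magnitude. The highest means over the 24 libraries were 19431 normalized counts per kilobase for Rpl4, 19371 for Rplp0, 17270 for Rpl7, 17202 for Rpl7a and 16788 for Rpl23a. The lowest were 10.8 for Rpl3l, 40.3 for Rps2 and 153 for Rps27rt. Rpl3l is the paralog that takes the place of Rpl3 in adult striated muscle, and in these myotubes Rpl3 had 2972 per kilobase. The low level of Rps2 is that of reads assigned to the gene alone.

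The start of transcription was examined because the TOP motif lies at the first base of the mRNA. RefSeq promoters (GRCm38.p6) were found for 63 of the 83 genes, with 75 starts. On the strand of the gene, a C as the first base followed by 4 bases each C or T was present at 14 of 75 starts (18.7 %), against 823 of 32851 starts of all genes (2.51 %). Allowing such a run to begin within 10 bases either side of the start gave 40 of 75 (53.3 %) against 10093 of 32851 (30.7 %). These matches describe annotated starts, which can lie some bases from the start used in a cell.

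Windows of 30 bases around the start, 10 before it and 20 from it, are shown for genes that moved most between 1 % and 5 % O2 or with stimulation. Capitals mark the longest run of C and T that begins with C, where it has at least 5 bases. In Rps27rt the run begins at the first base, in Rps18 and Rpl31 it spans it, and in Rps7, Rps2 and Rpl22l1 it begins a few bases into the mRNA. Rpl7l1 and Rps3a1 show none in this window.
Rps18 (chr17:33955646-33955675, minus strand): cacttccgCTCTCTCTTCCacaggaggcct
Rps27rt (chr9:114982720-114982749, minus strand): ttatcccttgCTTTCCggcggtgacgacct
Rps7 (chr12:28635934-28635963, minus strand): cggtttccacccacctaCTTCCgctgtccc
Rps2 (chr17:24720053-24720082, plus strand): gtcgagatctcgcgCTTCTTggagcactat
Rpl22l1 (chr3:28805498-28805527, plus strand): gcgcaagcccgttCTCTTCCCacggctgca
Rpl31 (chr1:39367841-39367870, plus strand): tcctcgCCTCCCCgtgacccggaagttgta
Rpl7l1 (chr17:46782637-46782666, minus strand): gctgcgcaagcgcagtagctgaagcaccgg
Rps3a1 (chr3:86142649-86142678, minus strand): gccggaagggcgaaagagcaagggtcacgt

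Between 1 % CTRL and 5 % CTRL, the comparison for acute hypoxia at rest, most ribosomal protein genes lay slightly higher in 1 % O2. The log2 fold change was positive for 75 of 83 genes, with a median of 0.11, beside a median of 0.0015 over all tested genes. Of the 83 genes, 11 rose and 4 fell at an adjusted p under 0.05 (limma on log2(normalized count + 1), Benjamini-Hochberg over all tested genes). Among all tested genes 59.9 % were called, 29.4 % higher and 30.5 % lower, so the 15 calls, 18.1 % of the family, were under the background share. For scale, the standard error of a log2 fold change had a median of 0.083 over these genes, and 0.060 over all genes tested. Of the 11470 other tested genes with an exon length within the family's range, the set planned for gene length, 57.6 % were called. Their median log2 fold change was 0.0085 and their median standard error 0.066. Of the 949 other tested genes no longer than the median ribosomal protein gene, a set chosen after the data had been seen, 23.8 % were called, with a median log2 fold change of 0.035. Their standard errors were larger, with a median of 0.18. Of 1369 other tested genes with a mean count at or above the family's median, a set also not planned in advance, 71.8 % were called. Their median log2 fold change was -0.086 and their median standard error 0.032.

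The count depended on replicate 1 of 1 % CTRL and also on how libraries were scaled and weighted. Without replicate 1 of 1 % CTRL 56 of the 83 genes were called, 52 higher and 4 lower, with a median of 0.17. That fit called 61.6 % of all tested genes. With all libraries and limma array weights, 44 genes rose and 4 fell, with a median of 0.14, beside 9191 of 14541 tested genes. Without replicate 1 of 5 % CTRL 12 were called (8 higher, 4 lower), with a median of 0.088, beside 8482 of 14541 tested genes. Without replicate 5 of 5 % CTRL 12 were called (9 higher, 3 lower), with a median of 0.087, beside 8520 of 14541. When libraries were rescaled to the same total count, 33 genes rose and 3 fell, and the split over all genes moved from 4271 higher and 4437 lower to 5670 and 3378. With the length slope as a covariate the family's median was 0.050, with 60 positive values, and 24 genes rose and 6 fell. With the slope removed from the values it was 0.088, with 69 positive values, and 15 genes rose and 5 fell. Over all 14541 tested genes 9048 were called with the covariate and 8805 with the slope removed.

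Among the stalk proteins, Rplp0 and Rplp1 rose and Rplp2 did not pass the test. Rplp0 (chr5:115559467-115563727) had 24116, 25524 and 26378 normalized counts in 5 % CTRL, as the lowest, median and highest library, and 24127, 27870 and 28617 in 1 % CTRL. The lowest library of 1 % CTRL was again replicate 1, and the other 5 started at 27609, above all of 5 % CTRL. The log2 fold change was 0.11 ± 0.040 (SE, n = 6 against 6 libraries, limma adjusted p = 0.0137), and 0.15 without replicate 1.

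Rplp1 had 5612, 6172 and 8029 counts in 5 % CTRL and 5527, 8333 and 9639.7 in 1 % CTRL (log2 fold change 0.32 ± 0.12, limma adjusted p = 0.0296). Rplp2 had 2165, 2716 and 3157 and 1827, 3282 and 3658 (log2 fold change 0.17 ± 0.14, limma adjusted p = 0.307). In all 3 stalk genes the groups overlapped through the same library, and without it Rplp2 also passed the test (log2 fold change 0.32, limma adjusted p = 0.0109). The call of Rplp1 was lost when any 1 of 8 other libraries was left out (adjusted p up to 0.0772).

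The 5S RNA partners Rpl5 and Rpl11 did not pass the test. Rpl5 had a log2 fold change of 0.071 ± 0.053 (limma adjusted p = 0.252), and 0.0093 with its copies, which held most of the counts. Rpl11 had 1889, 2823 and 3879.9 counts in 5 % CTRL and 1541, 4042 and 4971 in 1 % CTRL, a wide spread in both groups (log2 fold change 0.33 ± 0.25, 95 % interval -0.20 to 0.85). Leaving out replicate 1 of 1 % CTRL gave 0.57 for Rpl11 (limma adjusted p = 0.0185). With all libraries and its copies added, Rpl11 had 0.10 (limma adjusted p = 0.186).

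Rpsa (chr9:120127689-120132369), a small subunit protein also known as the laminin receptor precursor, showed the clearest rise. It had 23682, 24795 and 26676 counts in 5 % CTRL and 27087, 28685 and 29819.6 in 1 % CTRL, and the groups did not overlap. The log2 fold change was 0.19 ± 0.037 (limma adjusted p = 3.75e-05), and 0.17 with a term for the length slope described above. The gene held 99.8 % of the counts of gene and copies, and with copies added the value was 0.19.

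Rps4x, the X-linked small subunit protein, rose by 0.11 ± 0.038 on the log2 scale (limma adjusted p = 0.0154). It had 10449.7, 11684 and 12128 counts in 5 % CTRL and 11249, 12403 and 13517 in 1 % CTRL, so the groups overlapped. Its call was lost without replicate 6 of 1 % CTRL and without replicate 1 of 5 % CTRL (limma adjusted p up to 0.0653). Rps6, the substrate of the S6 kinases, and Rps27a, which is made as a fusion with ubiquitin, did not pass the test, with log2 fold changes of 0.10 ± 0.079 and 0.070 ± 0.055. Rps6 had only 17.1 % of the counts of its family, and its value with copies was -0.020.

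Other small subunit genes that rose were Rps12, Rps25, Rps27l and Rps3a1. Rps12 had 5997, 6637 and 6963 counts in 5 % CTRL and 6364, 7559 and 8714 in 1 % CTRL (log2 fold change 0.20 ± 0.066, limma adjusted p = 0.0114), and with copies added it did not pass (0.12, adjusted p = 0.133). Rps25, which overlaps Trappc4, had 3252, 3770.4 and 4287 and 3332, 4494 and 5054 (log2 fold change 0.23 ± 0.085, limma adjusted p = 0.0229). In both genes replicate 1 of 1 % CTRL lay within the range of 5 % CTRL and the other 5 libraries of its group lay above it. The call of Rps25 was lost in some of the fits that left out a library (limma adjusted p up to 0.0623).

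In the large subunit, Rpl13a, Rpl22 and Rpl31 rose beside the stalk genes. Rpl22 (chr4:152325742-152334071), a protein near the exit of the peptide tunnel, is nearly free of shared reads. It had 3576, 3772 and 4024 counts in 5 % CTRL and 3764, 4146 and 4539.7 in 1 % CTRL, overlapping ranges with a log2 fold change of 0.14 ± 0.037 (limma adjusted p = 0.00172). Rpl13a had 5658, 5936 and 6317 and 6023, 6446 and 6842 (log2 fold change 0.11 ± 0.033, limma adjusted p = 0.00456).

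Rpl31, another tunnel exit protein, had 899, 949 and 1089 counts in 5 % CTRL and 1014, 1172 and 1448 in 1 % CTRL (log2 fold change 0.28 ± 0.070, limma adjusted p = 0.00133). Its copies held more counts than the gene, and with them added the value was 0.23 and did not pass (adjusted p = 0.131).

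The gene that fell with the smallest relative error was Rpl7l1 (chr17:46773907-46782672), a paralog of Rpl7 with an exon length of 3140 bases, long for this family, and 3.2 % shared words. Rpl7l1 had 4465, 4808 and 5051 counts in 5 % CTRL and 3531, 3652 and 3799 in 1 % CTRL. Every library of 1 % CTRL, replicate 1 included, lay below every library of 5 % CTRL. Its level fell by 23.9 % (log2 fold change -0.39 ± 0.033, limma adjusted p = 1.54e-12), and the value was the same to 2 decimals with copies added and with the length slope as a covariate. The parent gene Rpl7 had 18627, 20404 and 20988 counts and 19549.5, 20366 and 21500.2 (log2 fold change 0.017 ± 0.032, limma adjusted p = 0.675).

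Rps2 and Rps18 also fell on their own counts, and did not fall with their copies. Rps18, at the head of the small subunit, had 250.4, 257 and 260.4 counts in 5 % CTRL and 153, 171 and 187 in 1 % CTRL, with no overlap (log2 fold change -0.59 ± 0.091, limma adjusted p = 8.97e-07). With copies, it had 9524, 10815 and 12254 and 9131, 12237 and 12847, overlapping (log2 fold change 0.13, adjusted p = 0.169).

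Rps2 had 49.2, 62.3 and 74.6 counts in 5 % CTRL and 34.5, 39.5 and 45.1 in 1 % CTRL, also with no overlap (log2 fold change -0.63 ± 0.17, limma adjusted p = 0.00169). Together with its copies, nearly all of whose counts lay on the pseudogene Rps2-ps10, it had 12099, 12621 and 13209.7 and 12773, 14110.1 and 14929.7, and the log2 fold change was 0.15 (adjusted p = 0.000263). Rps2 thus passed the test in opposite directions depending on which loci were counted. Rps3a1 went from 0.27 alone to -0.041 with copies, the latter not past the threshold (adjusted p = 0.357).

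Of the paralogs, Rpl22l1 did not pass the test in this comparison (log2 fold change 0.0088 ± 0.11, 95 % interval -0.21 to 0.22). Rps27l rose (0.22 ± 0.089, limma adjusted p = 0.0323) and Rps27rt fell (-0.33 ± 0.14, limma adjusted p = 0.0403), while Rps27 did not pass (0.15 ± 0.15, limma adjusted p = 0.405). Rps27rt had at most 79.6 counts in a library, and its call as well as that of Rps27l was lost in 6 of the 24 fits that left out a library. Rpl3, Rpl3l, Rpl10, Rpl36a, Rpl36al and Rpl39 did not pass, with log2 fold changes from -0.25 in Rpl3l to 0.20 in Rpl36a. Without replicate 1 of 1 % CTRL, Rpl39 (0.35, limma adjusted p = 0.00774) and Rpl36a (0.26, limma adjusted p = 0.00959) passed and Rpl10 did not (0.12, limma adjusted p = 0.112). With all libraries and copies added, Rpl36a had 0.11 and did not pass, and Rpl3 had 0.19 and passed (limma adjusted p = 2.37e-06).

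The groups did not overlap for 4 of the 83 genes in this comparison, Rps2, Rps18, Rpl7l1 and Rpsa, against 38.2 % of all tested genes. Without replicate 1 of 1 % CTRL they did not overlap for 20 of the 83, against 43.8 % of all tested genes. By subunit, 6 of 50 large subunit genes (5 higher, 1 lower) and 9 of 33 small subunit genes (6 higher, 3 lower) were called. These were 12 % and 27.3 %, under the 59.9 % of all tested genes. Without replicate 1 of 1 % CTRL 28 rose and 1 fell in the large subunit, and 24 rose and 3 fell in the small subunit. That fit called 61.6 % of all tested genes. Among the 13 genes with little shared sequence, 3 (23.1 %) were called with all libraries, Rpl7l1 lower and Rpl22 and Rps27l higher.

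**Figure D2:**
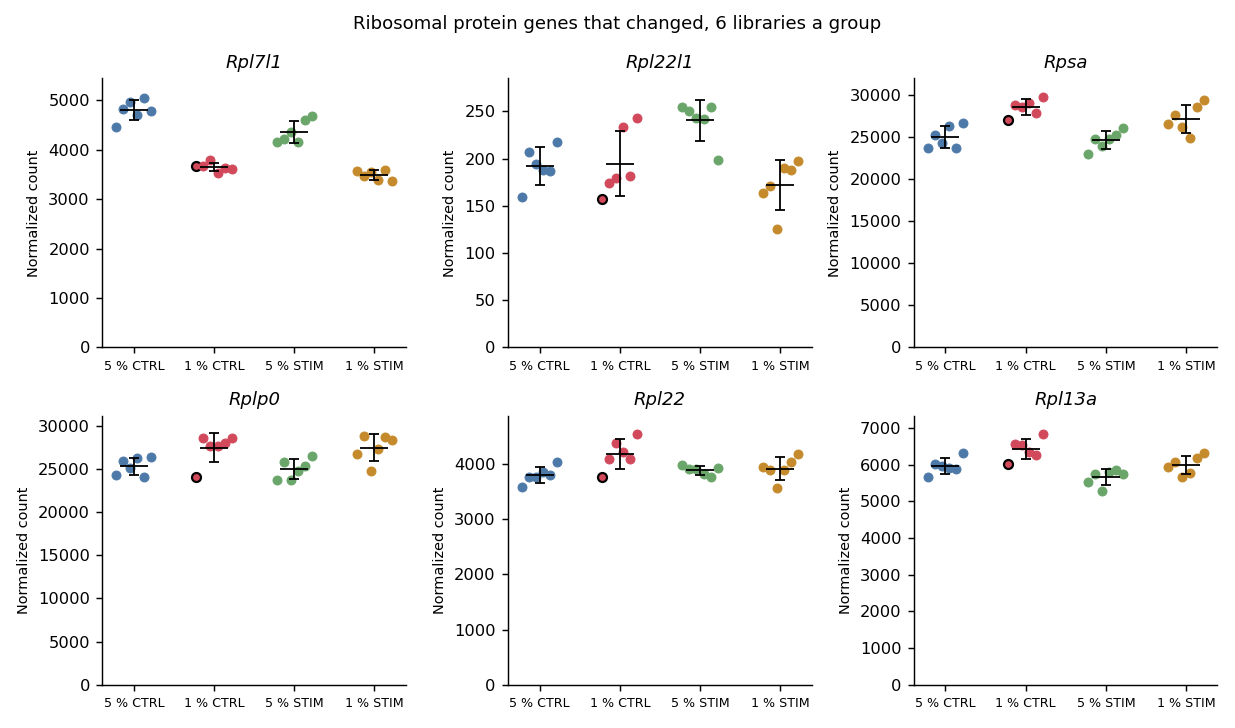
Normalized counts of 6 ribosomal protein genes in 4 groups of 6 libraries. Points are libraries in replicate order, lines are mean and SD, and the ringed point is replicate 1 of 1 % CTRL. Rpl7l1 lies at 3799 counts or below in every library of 1 % O2 and at 4151 or above in every library of 5 % O2.

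Genes that build ribosomes mostly fell. As background for this list and those that follow, 59.9 % of all tested genes were called, 29.4 % higher and 30.5 % lower. Of 32 ribosome biogenesis genes, 28 fell and 1 rose in 1 % CTRL, with a median log2 fold change of -0.48. Rrs1, an assembly factor of the large subunit, fell most (log2 fold change -1.13 ± 0.043, limma adjusted p = 1.55e-21, the same measure ± SE being given for the genes that follow), followed by Myc (-0.94 ± 0.078), the transcription factor that drives many of these genes, and Nop2 (-0.80 ± 0.033), an rRNA methyltransferase. With libraries rescaled to the same total, 27 fell and 1 rose. Of 15 translation factors and other mRNAs of the TOP class, 4 rose and 4 fell, with a median of -0.047 that turned to 0.034 on rescaling. Hnrnpa1, an RNA-binding protein of this class, rose by 0.35 ± 0.032 (limma adjusted p = 1.62e-11), Vim by 0.23 ± 0.061 and Eef1g, an elongation factor subunit, by 0.18 ± 0.031.

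Of 14 regulators of TOP mRNAs and mTORC1, 3 rose and 7 fell. Ddit4 (REDD1), a hypoxia-induced inhibitor of mTORC1, rose by 2.40 ± 0.14 (limma adjusted p = 1.47e-12), while the RNA-binding proteins Larp1 and Larp4 fell (-0.39 ± 0.025 and -0.54 ± 0.036).

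Of 7 tested genes for ribosome quality control and recycling, 1 rose and 3 fell. Zfp598, a sensor of collided ribosomes, fell (-0.30 ± 0.048), as did the recycling factor Abce1 (-0.19 ± 0.031), and the stress kinase Map3k20 rose (0.21 ± 0.028). Of 78 mitochondrial ribosomal protein genes, 18 rose and 10 fell, with a median of 0.047. These calls, 35.9 % of that list, were under the 59.9 % of all tested genes. Mrpl55 rose by 0.54 ± 0.10, Mrpl36 by 0.40 ± 0.12, and Mrps2 fell (-0.43 ± 0.039).

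**Figure D3:**
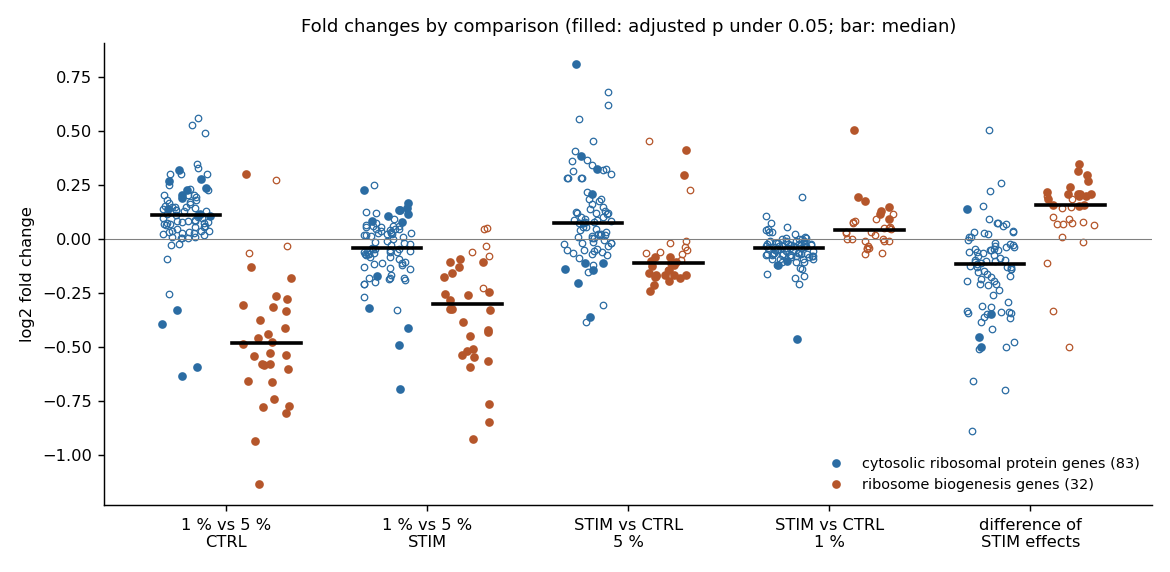
log2 fold changes of 83 cytosolic ribosomal protein genes (blue) and 32 ribosome biogenesis genes (orange) in 4 comparisons and in the difference of the stimulation effects between 1 % and 5 % O2. Each point is a gene, filled where the limma adjusted p was under 0.05, and bars are medians. In 1 % CTRL against 5 % CTRL the medians were 0.11 and -0.48.

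Between 1 % STIM and 5 % STIM, the comparison for hypoxia in stimulated myotubes, the family did not move one way. Of the 83 genes, 9 rose and 5 fell, with 36 positive values and a median log2 fold change of -0.041, beside -0.00083 for all tested genes. Among all tested genes 57.4 % were called, 29.0 % higher and 28.4 % lower. Of the 11470 genes within the family's length range, 55.0 % were called, with a median of 0.0015. Of the 949 short genes, 23.4 % were called, with a median of -0.065. Of the 1369 genes at or above the family's median level, 67.2 % were called, with a median of -0.068. The sign of the family's median depended on processing, turning to 0.065 with the length slope as a covariate (29 higher, 5 lower), to 0.0058 with that slope removed from the values (16 higher, 4 lower) and to 0.030 after rescaling (17 higher, 3 lower). Rescaling moved the split over all genes from 4210 higher and 4136 lower to 5466 and 3182. Over all tested genes 8678 were called with the covariate and 8534 with the slope removed. Without replicate 3 of 1 % STIM the family's median was 0.033.

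Rpl7l1 and Rpsa moved as they did at rest. Rpl7l1 had 4151, 4294 and 4681 counts in 5 % STIM and 3369, 3513 and 3582 in 1 % STIM, with no overlap, and fell by 19.9 % (log2 fold change -0.32 ± 0.033, limma adjusted p = 2.48e-10). Rpsa had 22938, 24763 and 26062 and 24868, 27084 and 29377 (log2 fold change 0.14 ± 0.037, limma adjusted p = 0.00135). The ranges of Rpsa overlapped here.

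Rplp0 was the only stalk gene called, with 23691, 25066 and 26512 counts in 5 % STIM and 24820.1, 27844 and 28846 in 1 % STIM (log2 fold change 0.14 ± 0.040, limma adjusted p = 0.00381). Rplp1 and Rplp2 had -0.019 ± 0.12 and 0.031 ± 0.14. Rpl12, which sits at the base of the stalk, rose by 0.13 ± 0.034 (limma adjusted p = 0.00107), from 8956, 9569.6 and 10403 to 10105, 10524 and 10846 counts with overlap.

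The paralog Rpl22l1 (chr3:28805436-28807424) separated the stimulated groups. Rpl22l1 had 198, 247 and 255 counts in 5 % STIM and 125, 179 and 198 in 1 % STIM, and the groups did not overlap although their nearest values were close. It fell by 28.7 % (log2 fold change -0.49 ± 0.11, limma adjusted p = 0.000183), and the value was -0.49 with copies added. Its parent Rpl22 had 3759, 3904 and 3974 and 3555, 3910.1 and 4177 counts, with a log2 fold change of 0.011 ± 0.037 (limma adjusted p = 0.817).

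Rpl17, a protein of the tunnel exit, also fell, from 5464, 5833 and 6062 counts in 5 % STIM to 4888, 5156 and 5434 in 1 % STIM, with no overlap (log2 fold change -0.17 ± 0.054, limma adjusted p = 0.00766). After rescaling the value was -0.10 and did not pass (adjusted p = 0.129). Rpl5 rose, with 1278, 1357 and 1417 and 1346, 1597 and 1818 counts and a log2 fold change of 0.22 ± 0.053 (limma adjusted p = 0.000541), which was 0.092 with copies (adjusted p = 0.0239). Rpl11, its partner on the 5S RNA, had -0.18 ± 0.25 (limma adjusted p = 0.563).

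Rpl15 rose on its own counts, 7930.4, 8399 and 9033 in 5 % STIM and 8966, 9555 and 9889 in 1 % STIM (log2 fold change 0.17 ± 0.030, limma adjusted p = 1.19e-05). With copies it did not pass (0.079, adjusted p = 0.0667). Rpl7a rose by 0.11 ± 0.028 and Rps9 by 0.12 ± 0.046, and Rpl13a had 0.083 ± 0.033 (limma adjusted p = 0.0317). All 3 had overlapping groups, and the calls of Rps9 and Rpl13a were lost in some of the fits that left out a library.

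Rps18 and Rps2 again fell alone and not with their copies. Rps18 had 178, 196 and 234 counts in 5 % STIM and 101, 121 and 161 in 1 % STIM, with no overlap (log2 fold change -0.69 ± 0.091, limma adjusted p = 5.59e-08), and -0.0098 with copies (adjusted p = 0.930). Rps2 had 28.6, 52.9 and 58.3 and 24.4, 38.0 and 47.6 (log2 fold change -0.41 ± 0.17, limma adjusted p = 0.0378), a call lost in 7 of the 24 fits that left out a library. With copies Rps2 rose by 0.18 (adjusted p = 4.21e-05). The groups did not overlap for 4 of the 83 genes, Rps18, Rpl22l1, Rpl7l1 and Rpl17, against 37.3 % of all tested genes.

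**Figure D4:**
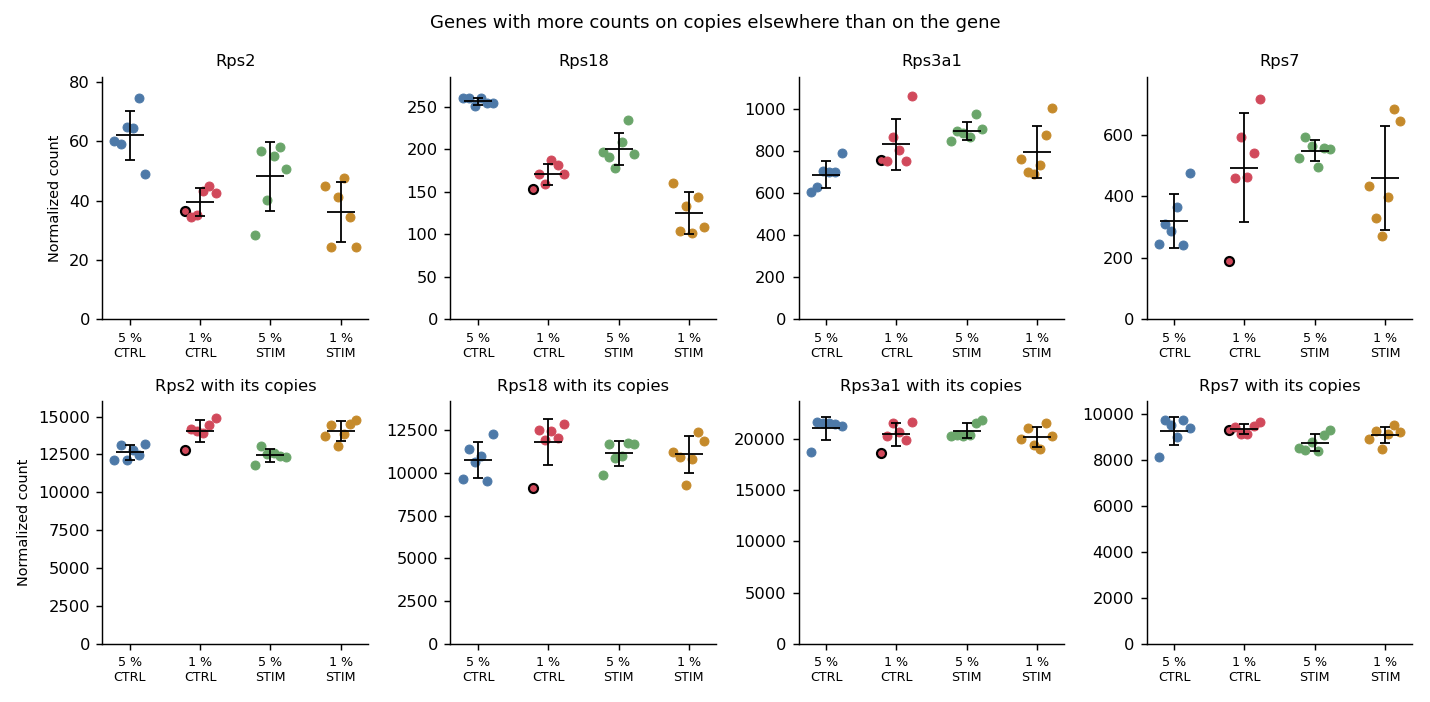
Normalized counts of Rps2, Rps18, Rps3a1 and Rps7 on the gene alone (top) and with all copies added (bottom) in 4 groups of 6 libraries, on axes that start at 0. Points are libraries in replicate order, lines are mean and SD, and the ringed point is replicate 1 of 1 % CTRL. For Rps18, 5 % CTRL lies above the other groups alone and overlaps them with copies.

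For the lists around the family, the background was 57.4 % of all tested genes called, 29.0 % higher and 28.4 % lower. Between 1 % STIM and 5 % STIM, 26 of 32 ribosome biogenesis genes fell (median -0.30), with 22 lower and 2 higher after rescaling. Rrs1 (-0.93 ± 0.043), Myc (-0.85 ± 0.078) and Ubtf (-0.76 ± 0.027), a factor of RNA polymerase I, fell most. Of the 15 TOP class genes, 7 rose (median 0.030), with Hnrnpa1 (0.40 ± 0.032), the histone chaperone Nap1l1 (0.28 ± 0.030) and Vim (0.20 ± 0.061) highest. Of the regulators, 2 rose and 7 fell, Ddit4 rising by 1.39 ± 0.14, and Eif4ebp1, the translation repressor that mTORC1 inactivates, falling (-0.58 ± 0.067).

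Among quality control genes 2 rose and 2 fell, with Nemf at 0.17 ± 0.037, Map3k20 at 0.16 ± 0.028 and Zfp598 at -0.34 ± 0.048. Of 78 mitochondrial ribosomal protein genes 13 rose and 5 fell, with a median of 0.0069. Mrpl23 had the largest change (-1.27 ± 0.33) at a mean of 33.2 counts in 5 % STIM and 13.1 in 1 % STIM, followed by Mrpl47 (-0.30 ± 0.050) and Mrpl10 (0.25 ± 0.045).

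Between 5 % STIM and 5 % CTRL, the comparison for contraction without hypoxia, 4 of the 83 genes rose and 6 fell. The median log2 fold change was 0.075, with 57 positive values, and that of all tested genes was -0.0076. Among all tested genes 21.4 % were called, 9.44 % higher and 12.0 % lower, and 8.85 % of the 949 short genes, with a median of 0.066. Of the 11470 genes within the family's length range, 20.3 % were called, with a median of -0.0052. Of the 1369 genes at or above the family's median level, 31.1 % were called, with a median of -0.034. With the length slope as a covariate the median of the family turned to -0.039, and 8 genes rose and 15 fell. With the slope removed from the values it stayed positive at 0.029, with 49 positive values, and 6 genes rose and 11 fell. Since all groups share the estimate of spread, leaving out replicate 1 of 1 % CTRL moved the count to 18 (12 higher, 6 lower), while 23.9 % of all genes were called. A fit of the 2 groups alone called 24. After rescaling 5 genes rose and 4 fell, and the split over all genes moved from 1372 higher and 1743 lower to 1860 and 1133.

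Rps7 had the largest fold change of the called genes, on the gene alone. On its own counts Rps7 had 242, 298 and 476 in 5 % CTRL and 495, 556 and 593 in 5 % STIM, with no overlap (log2 fold change 0.81 ± 0.27, limma adjusted p = 0.0342). The call was lost in 9 of the 24 fits that left out a library (limma adjusted p up to 0.0741). Its copies, with nearly all of their counts on the transcribed pseudogene Gm6472, had 7882, 9073 and 9482 and 7817, 8094 and 8739, lower at the median after stimulation. The sum of gene and copies had a log2 fold change of -0.080 (adjusted p = 0.116).

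Rps3a1 behaved in a similar way, with 606, 699.5 and 788 counts in 5 % CTRL and 846, 891 and 974 in 5 % STIM on the gene, with no overlap (log2 fold change 0.38 ± 0.090, limma adjusted p = 0.00302). With copies it had 18763, 21490.4 and 21607 and 20282, 20393 and 21879, overlapping (-0.014, adjusted p = 0.836). Rps18 fell from 250.4, 257 and 260.4 to 178, 196 and 234 counts alone (-0.36 ± 0.091, limma adjusted p = 0.00341) and had 0.056 with copies (adjusted p = 0.690).

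Rpl22l1 rose with stimulation in 5 % O2, from 159.6, 191 and 218 counts in 5 % CTRL to 198, 247 and 255 in 5 % STIM. The ranges overlapped through replicate 6 of 5 % STIM, the lowest of its group (log2 fold change 0.32 ± 0.11, limma adjusted p = 0.0245). The call was lost without replicate 1 of 5 % CTRL, and without replicate 1 or 5 of 5 % STIM (limma adjusted p up to 0.0732). Rpl22 had 3576, 3772 and 4024 and 3759, 3904 and 3974 (log2 fold change 0.033 ± 0.037, limma adjusted p = 0.583). Rpl7l1 fell, with a log2 fold change of -0.14 ± 0.033 (limma adjusted p = 0.00162), and its groups overlapped.

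Several changes of large subunit genes were small decreases. Rpl15 fell from 9309, 9760.4 and 10009.5 to 7930.4, 8399 and 9033 counts with no overlap (log2 fold change -0.20 ± 0.030, limma adjusted p = 2.49e-06), and the value with copies, -0.079, did not pass (adjusted p = 0.133). Rpl7a had 14946, 16017 and 16579 and 13848, 14661 and 15534 (-0.11 ± 0.028, limma adjusted p = 0.00303). Rpl12 had -0.11 ± 0.034 (limma adjusted p = 0.0154) and Rpl3 had -0.14 ± 0.046 (limma adjusted p = 0.0258), the last with a value of -0.0079 once the copies, which hold most of its family's counts, were added. The calls of Rpl12 and Rpl3 were lost in some of the fits that left out a library (limma adjusted p up to 0.0580 and 0.0726).

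Rpl31 rose by 0.21 ± 0.070 (limma adjusted p = 0.0362), and its call was lost in 8 of the 24 fits that left out a library. With copies added it had 0.24 and did not pass (limma adjusted p = 0.199). The stalk genes, Rpl5, Rpl11, Rpsa, Rps4x, Rps6 and Rps27a did not pass the test, with log2 fold changes from -0.12 in Rpl5 to 0.45 in Rpl11, the latter 0.0097 with copies. The groups did not overlap for 8 of the 83 genes, against 11.1 % of all tested genes. Of these, Rps18, Rpl15, Rps3a1 and Rps7 were called, and Rps27, Rpl39, Rps28 and Rps29 were higher in all libraries of 5 % STIM without passing. Rps28 was named here because its groups did not overlap.

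For the lists around the family, the background was 21.4 % of all tested genes called, 9.44 % higher and 12.0 % lower. Of the ribosome biogenesis genes, 19 fell and 2 rose (median -0.11), with 13 lower and 2 higher after rescaling. Nop2 had -0.24 ± 0.033, while Myc rose by 0.41 ± 0.078 and Nop10, a protein of the guide RNA complexes that modify rRNA, by 0.29 ± 0.087. Of the TOP class genes 6 fell (median -0.067), among them Hnrnpa1 (-0.18 ± 0.032), the nucleolar chaperone Npm1 (-0.17 ± 0.033) and the poly(A) binding protein Pabpc1 (-0.17 ± 0.027). Of the regulators 4 rose, with Sesn2, a stress-induced inhibitor of mTORC1, at 0.87 ± 0.056, Ddit4 at 0.82 ± 0.14 and Eif4ebp1 at 0.48 ± 0.067.

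Among quality control genes 3 fell, Nemf (-0.13 ± 0.037), Hbs1l (-0.11 ± 0.036) and Abce1 (-0.089 ± 0.031). Of 78 mitochondrial ribosomal protein genes 3 rose and 4 fell (median -0.029). Mrps36 rose by 0.34 ± 0.12, Mrps18c by 0.23 ± 0.083, and Mrps2 had -0.22 ± 0.039.

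Between 1 % STIM and 1 % CTRL, the comparison for contraction in hypoxia, 3 of the 83 genes fell and 0 rose in limma. The median log2 fold change was -0.044, with 13 positive values, against -0.0031 for all tested genes. Among all tested genes 22.3 % were called, 11.5 % higher and 10.8 % lower, and 5.37 % of the 949 short genes. Of the 11470 genes within the family's length range, 20.5 % were called, with a median of -0.0071. Of the 1369 genes at or above the family's median level, 32.9 % were called, with a median of -0.0076. Over the fits that left out 1 library, calls ran from 1 to 9 and the median from -0.13 to -0.0052. Without replicate 1 of 1 % CTRL, 9 of the 83 genes fell, with a median of -0.13, beside 25.8 % of all genes called. At an unadjusted p under 0.05 there were 5 genes, and edgeR and DESeq2 each called 3, all lower. After rescaling 1 gene fell, and the split over all genes moved from 1668 higher and 1577 lower to 2142 and 1293.

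Rps18 fell most, from 153, 171 and 187 counts in 1 % CTRL to 101, 121 and 161 in 1 % STIM, with overlap (log2 fold change -0.46 ± 0.091, limma adjusted p = 0.000198), and had -0.088 with copies (adjusted p = 0.516). Rps24 had 8221, 9709 and 10530.5 and 8375, 8827 and 9147 (log2 fold change -0.12 ± 0.042, limma adjusted p = 0.0368). Rpl13a had 6023, 6446 and 6842 and 5659, 6010.4 and 6319.7 (log2 fold change -0.10 ± 0.033, limma adjusted p = 0.0227). The calls of Rps24 and Rpl13a were lost in 7 and 4 of the 24 fits that left out a library (limma adjusted p up to 0.117 and 0.0763). The groups overlapped for all 83 genes, while 11.2 % of all tested genes did not overlap. Without replicate 1 of 1 % CTRL, 4 of the 83 genes did not overlap, against 16.3 % of all tested genes.

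Named genes that did not pass included Rpl22l1, with 157, 180.2 and 243 counts in 1 % CTRL and 125, 179 and 198 in 1 % STIM (log2 fold change -0.17 ± 0.11, 95 % interval -0.39 to 0.042). Rpl7l1 had -0.066 ± 0.033 (limma adjusted p = 0.154) and Rpsa -0.071 ± 0.037 (limma adjusted p = 0.182). The stalk genes lay between -0.054 in Rplp1 and 0.0065 in Rplp2. Rpl5 had 0.033 ± 0.053.

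For the lists around the family, the background was 22.3 % of all tested genes called, 11.5 % higher and 10.8 % lower. Of the ribosome biogenesis genes 7 rose (median 0.039), led by Myc (0.50 ± 0.078), Gnl3 (0.20 ± 0.032), a nucleolar GTPase, and Nop56 (0.18 ± 0.031), a core protein of box C/D particles. Of the TOP class only Hnrnpa1 was called (-0.13 ± 0.032). Of the regulators 5 rose, among them Sesn2 (0.77 ± 0.056), Tsc1 (0.17 ± 0.036) and Rheb (0.15 ± 0.038). Limma called 0 of the 7 quality control genes, also at an unadjusted p under 0.05. Of the mitochondrial ribosomal protein genes Mrps30 (0.18 ± 0.051) and Mrps9 (0.12 ± 0.040) rose and Mrpl53 fell (-0.18 ± 0.062).

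The interaction asked whether the response to stimulation differed between 1 % and 5 % O2, as the effect in 1 % O2 minus that in 5 % O2. It was past the threshold for 4 of the 83 genes, negative for Rpl22l1, Rps3a1 and Rpl31 and positive for Rpl15. The median over the family was -0.11, with 17 positive values, and that of all tested genes was 0.0072. Among all tested genes 11.3 % were called, 5.88 % higher and 5.43 % lower, and among the 949 short genes 2.74 %, with a median of -0.094. Of the 11470 genes within the family's length range, 10.2 % were called, with a median of -9.6e-05. Of the 1369 genes at or above the family's median level, 19.4 % were called, with a median of 0.026. With the length slope as a covariate the median of the family was 0.016, with 48 positive values, and with the slope removed it was -0.068, with 27. Without replicate 1 of 1 % CTRL, 21 genes were called, 1 higher and 20 lower, beside 15.9 % of all genes. Over the fits that left out 1 library, calls ran from 3 to 21 and the median from -0.17 to -0.074.

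For Rpl22l1 the difference was -0.50 ± 0.15 (limma adjusted p = 0.0263), from 0.32 with stimulation in 5 % O2 and -0.17 in 1 % O2. It was -0.51 with copies added (adjusted p = 0.0262), and -0.36 with the length slope as a covariate, where it did not pass the test. The median of Rpl22l1 was 191 in 5 % CTRL, 180.2 in 1 % CTRL and 179.1 in 1 % STIM, and 246.9 in 5 % STIM, the highest of the 4 medians.

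Rps3a1 had -0.45 ± 0.13 (limma adjusted p = 0.0225) alone and -0.00060 with copies (adjusted p = 0.996). Rpl31 had -0.35 ± 0.10 (limma adjusted p = 0.0236) and -0.28 with copies (adjusted p = 0.347). Rpl15 had 0.14 ± 0.042 (limma adjusted p = 0.0291) and 0.00088 with copies (adjusted p = 0.995). Of the 4 genes, Rpl22l1 alone kept its call with copies added. Among the fits that left out a library, the call of Rpl15 was lost in 7 and that of Rpl22l1 in 2 of 24.

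For the lists around the family, the background was 11.3 % of all tested genes called, 5.88 % positive and 5.43 % negative. Of the ribosome biogenesis genes 16 had a positive interaction (median 0.16), and 16 also after rescaling. Nop56 (0.34 ± 0.044), Utp20 (0.31 ± 0.052) and Dkc1 (0.30 ± 0.045) were highest. Of the TOP class 4 were positive (median 0.068), Pabpc1 (0.19 ± 0.038), Npm1 (0.18 ± 0.046) and Nap1l1 (0.16 ± 0.042) among them. Of the regulators Ddit4 (-1.01 ± 0.20) and Eif4ebp1 (-0.31 ± 0.10) were negative. Of the quality control genes Nemf was positive (0.18 ± 0.052), and of the mitochondrial ribosomal protein genes Mrps30 (0.23 ± 0.072), Mrps2 (0.22 ± 0.056) and Mrps18b (0.15 ± 0.050).

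By place in the ribosome, calls at rest in 1 % against 5 % O2 stood beside 59.9 % of all tested genes, and 61.6 % without replicate 1 of 1 % CTRL. Of 8 tunnel exit proteins, 2 rose, and 5 rose without that library. Of 11 proteins of the small subunit head, 1 rose and 1 fell, and 9 rose and 1 fell without it. Of 13 paralogs and their parents, 2 rose and 2 fell, and 6 rose and 2 fell without it.

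In the other comparisons the background was 57.4 % between the stimulated groups, 21.4 % and 22.3 % with stimulation in 5 % and 1 % O2, and 11.3 % in the interaction. Of the tunnel exit proteins, 1 fell between 1 % STIM and 5 % STIM, 1 rose with stimulation in 5 % O2 and 1 had a negative interaction. Of the head proteins, Rps18 fell in these 3 pairwise comparisons. Of the paralogs and their parents, the counts were 2 lower between the stimulated groups, 1 higher and 2 lower with stimulation in 5 % O2, and 1 negative interaction. When replicate 1 of 1 % CTRL was left out, 4 tunnel exit genes, 3 head genes and 5 of the paralogs and parents had a lower response to stimulation in 1 % than in 5 % O2 in the interaction, against 15.9 % of all tested genes.

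Across all 24 libraries the genes of the family differed in how widely they ranged. The distance between the highest and lowest library on the log2 scale ran from 0.19 for Rpl4 to 2.09 for Rpl3l, with a median of 0.65. After Rpl3l, which has few counts, the widest were Rpl29 (1.95), Rps7 (1.90) and Rps29 (1.85). Rps29, with an exon length of 390 bases, had 585, 898 and 1213 counts in 5 % CTRL, 494, 1386 and 1728 in 1 % CTRL, 1267, 1368 and 1482 in 5 % STIM and 646, 1187 and 1786 in 1 % STIM. Its lowest library was replicate 1 of 1 % CTRL, the library with the steepest length slope.

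Rpl29, with 7.47 % of the counts of its family, had 106, 125 and 219 counts in 5 % CTRL and 80.7, 211 and 306 in 1 % CTRL. Neither gene passed the test in any comparison with all libraries, and in 1 % CTRL against 5 % CTRL their log2 fold changes were 0.53 ± 0.28 for Rpl29 and 0.49 ± 0.27 for Rps29. Without replicate 1 of 1 % CTRL both rose, Rpl29 by 0.77 (limma adjusted p = 0.00907) and Rps29 by 0.75 (limma adjusted p = 0.00487). With all libraries and copies added Rpl29 had 0.19 (limma adjusted p = 0.0760). In the map of all genes by library, short genes such as Rpl36, Rpl38 and Rps29 are low together in replicate 1 of 1 % CTRL and replicate 3 of 1 % STIM, while Rpl7l1 and Rps18 follow the groups instead. Replicate 5 of 5 % CTRL is low in part of them too. Rpl36 and Rpl38 were named here after the map had been seen.

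**Figure D5:**
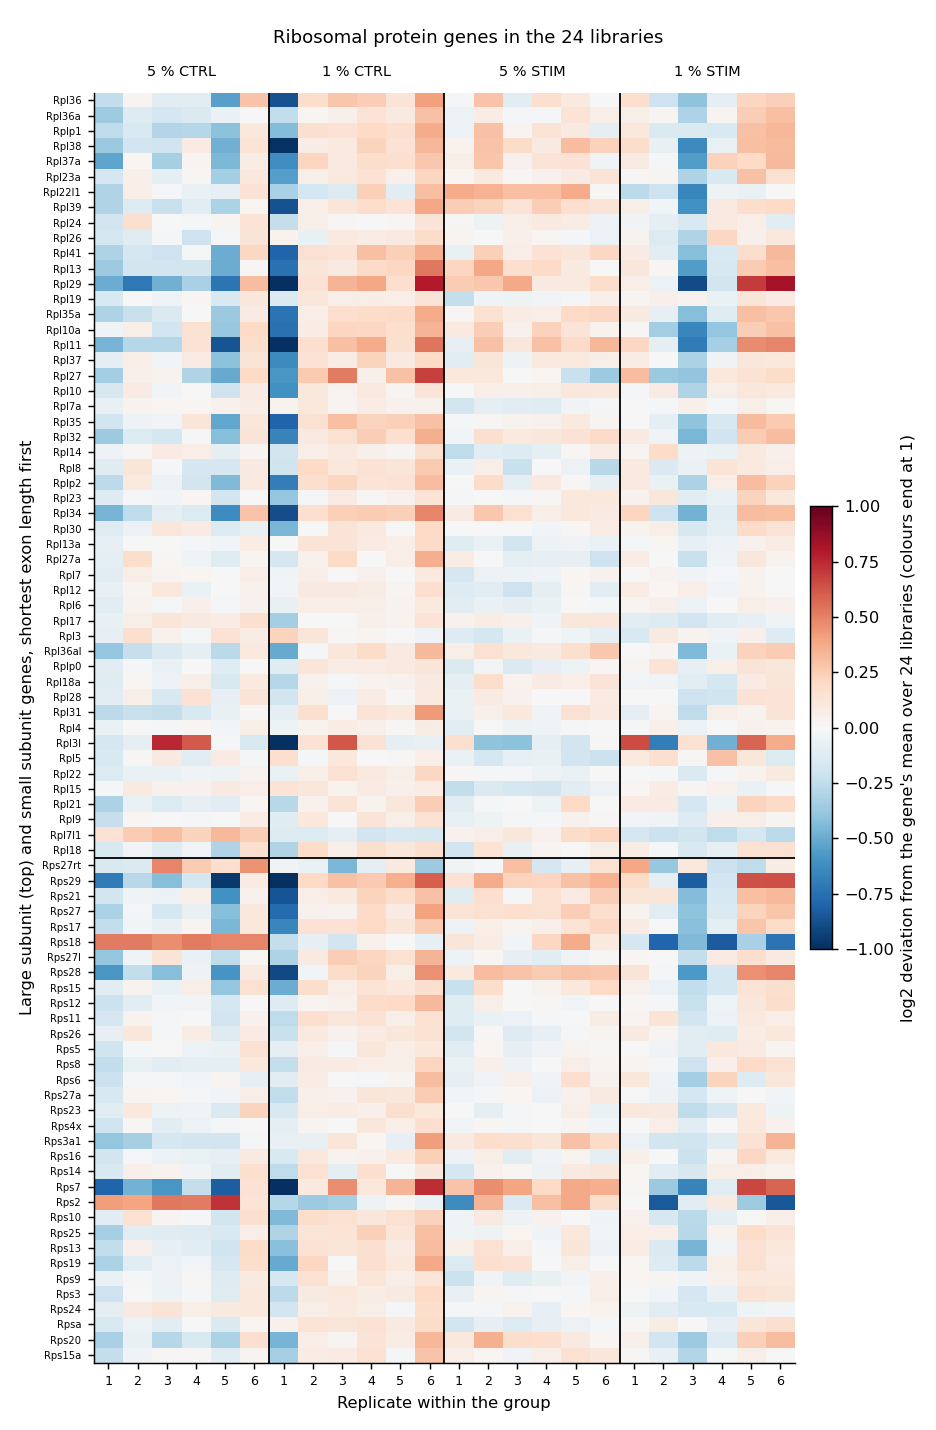
log2 deviation of each of the 83 genes from its mean over 24 libraries (colour, ending at 1 in either direction), with large subunit genes above the line and small subunit genes below, each from the shortest exon length down. Columns are the 6 replicates of each of 4 groups. Dark blue cells gather among short genes in replicate 1 of 1 % CTRL and replicate 3 of 1 % STIM.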

How the data were processed

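RNA of 24 C2C12 myotube libraries, 6 in each of 4 groups, had been sequenced from a stranded mRNA kit with single-end reads. Per the submitters' processing notes, the authors used FastQC 0.11.7, STAR 2.5.4b and RSEM 1.3.0 on GRCm38, and the annotation release is not given in the sources used here. RSEM with default parameters does not use strand, so reads of overlapping antisense genes cannot be told apart. The deposited values are a signal: read counts per gene, estimated by RSEM, that the authors had divided by a DESeq2 size factor per library. Multiplied back, 100 % of values were whole numbers (tolerance 0.01), called reads here. There were 26541858 to 28173745 reads per library and size factors of 0.955 to 1.05. Whole numbers do not show that reads shared by several loci were assigned whole. A deposited table of the authors' own fold changes, p-values and calls was not used.

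Genes with 10 or more normalized counts in 6 or more libraries were tested with limma 3.58.1 in R 4.3.3 on log2(normalized count + 1), with 1 fit of the 4 groups, trend and robust moderation, and Benjamini-Hochberg adjustment over 14541 genes, so a fold change is on that scale and understates changes of genes with few counts. Comparisons share groups and are not independent. edgeR 4.0.16, DESeq2 1.42.0 and limma voom were run on the recovered whole numbers, and the code was tested on simulated data.

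Exon lengths and shared sequence came from GENCODE M21 (55227 of 55487 gene IDs found, 99.5 %). A gene's transcripts were split into words of 75 bases and searched in all other genes. Copies were pseudogenes sharing a word, or other genes sharing at least 25 % of their own words. The length slope of a library is the regression described with the libraries, computed without the ribosomal protein genes.

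Members and lists were chosen with earlier results of these data known. Genes were named by rule: stalk and 5S RNA proteins, paralogs with their parents, Rpsa, Rps6, Rps27a and Rps4x; in each comparison up to 6 called members with the largest increases and up to 6 with the largest decreases; members called in the interaction; the 5 highest and 3 lowest per kilobase; the 4 with most shared words and the 4 with the widest range; and up to 3 called genes of each other list. Alternatives were the pseudocount, the filter, the scaling, the tool, the replicate block, the length slope, the groups in the fit, pseudogene counts, and each library left out.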

Additional observations from a re-analysis of the deposited data

Results flagged for a closer look

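In 23 of 172 sets of 6 libraries, 1 library lay far from the others of its group (a gap to the nearest library above Dixon's 95 % critical value). Chance flags about 1 in 20 sets that are independent. These sets come from the same 24 libraries, and some genes were named for their wide range over them. The 23 can therefore not be set against that rate. Of the 23, 13 were in replicate 1 of 1 % CTRL, the library with the steepest length slope. It had a share of counts on ribosomal protein genes of 1.52 %, with the other 5 libraries at 1.87 % to 2.04 %, and a length slope of 0.099, with the others at -0.044 to -0.016.

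Its normalized counts were 24127 for Rplp0 (others 27609 to 28617), 5527 for Rplp1 (8259 to 9639.7) and 1827 for Rplp2 (3245 to 3658) among the stalk proteins. In other large subunit genes they were 7727 for Rpl10, 1541 for Rpl11, 4406 for Rpl17, 6385 for Rpl23a, 3073 for Rpl35 and 722 for Rpl39, each the lowest of its group. In the small subunit they were 3332 for Rps25 and 494 for Rps29, again the lowest. The cause was not tested.

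Replicate 3 of 1 % STIM had the lowest count of its group for Rpl10 (9546), Rpl39 (866), Rps25 (3391) and Rps27a (5875). In 5 % CTRL, Rpl29 was at 219 in replicate 6 (others 106 to 140.2) and Rps24 at 8736 in replicate 1 (others 9702 to 10179.9). Rps3a1 was at 1062 in replicate 6 of 1 % CTRL, with the others at 750.2 to 864. In 5 % STIM the length slope was 0.0024 in replicate 1, Rpl22l1 was at 198 in replicate 6 (others 242 to 255), and Rps27 at 1621 in replicate 5 (others 1499 to 1537).

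The response to stimulation differed between 1 % and 5 % O2 by the interaction test for 4 genes, with log2 differences of -0.50 for Rpl22l1, -0.45 for Rps3a1, -0.35 for Rpl31 and 0.14 for Rpl15. With all copies added, Rpl22l1 kept its call and the other 3 did not.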

How the results depend on the processing

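The fit as reported called 15 ribosomal protein genes in 1 % CTRL against 5 % CTRL, 14 in 1 % STIM against 5 % STIM, 10 with stimulation in 5 % O2, 3 with stimulation in 1 % O2 and 4 in the interaction. Over all tested genes the shares called were 59.9 %, 57.4 %, 21.4 %, 22.3 % and 11.3 %. With the length slope as a covariate the pairwise counts were 30, 34, 23 and 10, and the medians turned to 0.065 between the stimulated groups, -0.039 with stimulation in 5 % O2 and 0.016 in the interaction. With the slope removed from the values, the counts were 20, 20, 17 and 5, the median turned to 0.0058 between the stimulated groups, and it kept its sign with stimulation in 5 % O2 (0.029) and in the interaction (-0.068). At rest and between the stimulated groups, 8708 and 8346 of all tested genes were called in the fit as reported. With the covariate these were 9048 and 8678, and with the slope removed 8805 and 8534. Rescaling to the same total gave 36 in 1 % CTRL against 5 % CTRL and 1 with stimulation in 1 % O2, and array weights gave 48, 18, 7 and 7 in the comparisons other than that of the stimulated groups. At an adjusted p under 0.01 the counts were 7, 5, 1 and 0 in the same comparisons, the interaction having 7 genes at an unadjusted p under 0.05 and 4 calls by edgeR and by DESeq2. A fit of the compared groups alone called 24 with stimulation in 5 % O2, and for the interaction this fit is the one already reported and was not run.

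Adding all copies left 4 calls with stimulation in 5 % O2 and 1 in the interaction, and adding -ps pseudogenes gave 5 with stimulation in 1 % O2. Among the 13 genes with little shared sequence, limma called 3, 2, 1, 0 and 0, with 1 gene at an unadjusted p under 0.05 in each of the last comparisons, and fewer genes are counted here. The median share of counts in 5 % CTRL, 1 % CTRL, 5 % STIM and 1 % STIM was 0.294 %, 0.333 %, 0.303 % and 0.323 % for those 13 genes, 1.90 %, 2.18 %, 1.98 % and 2.10 % with -ps pseudogenes, and 2.22 %, 2.53 %, 2.29 % and 2.44 % with all copies. Directions reversed with all copies for Rps18 (0.13 at rest and 0.056 with stimulation in 5 % O2), Rps3a1 (-0.041 and -0.014), Rps7 (-0.080 with stimulation in 5 % O2) and Rps2 (0.15 at rest and 0.18 between the stimulated groups, the same with -ps pseudogenes), and for Rpl10 at rest with the length covariate (-0.074 from 0.0026). These reversals follow from which loci are summed, except that of Rpl10, for which the cause was not tested.

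Leaving out 1 library gave 11 to 56, 10 to 16, 7 to 18, 1 to 9 and 3 to 21 calls in the 5 comparisons, and medians of 0.071 to 0.17, -0.068 to 0.033, 0.034 to 0.10, -0.13 to -0.0052 and -0.17 to -0.074. The highest counts came without replicate 1 of 1 % CTRL. In the comparisons other than that of the stimulated groups, 61.6 %, 23.9 %, 25.8 % and 15.9 % of all tested genes were called without that library. The count of 1 came without replicate 2 or 6 of 1 % CTRL or replicate 3 or 4 of 1 % STIM, and the median of 0.033 without replicate 3 of 1 % STIM. Of 205 tests of 41 named genes, alternatives other than left-out libraries gave 2693 values with the same call and direction, 99 newly past the threshold, 62 no longer past it and 10 reversed. With a library left out, 4787 kept call and direction, 46 newly passed and 87 no longer passed.

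The replicate block gave 22, 17, 13, 5 and 4 calls. At rest and between the stimulated groups it called 8730 and 8350 of all tested genes. Whether replicate numbers paired the libraries was not settled. Over 36 pairs with the same number, the correlation of deviations from the group means ran from -0.15 to 0.15, with 2 over 0.1. The median was 0.0062, beside 0.00083 over 180 pairs with different numbers. Of 24 libraries, 7 correlated best with a library of their own number, and the number that chance gives was not computed. Weak correlations over all genes cannot exclude a pairing. Values of Rps2, Rps27rt and Rpl3l rest on under 100 counts a library.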
